A study of Bos taurus with 4 samples.

Results

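Cytosolic ribosomal proteins were followed in bovine chromaffin cells through the mouse cDNA clones that carry their genes. A clone was a member where the platform annotation gave it a single gene symbol of the ribosomal protein series, that is Rpl or Rps with a number, Rplp0 to Rplp2, or Rpsa, and pseudogene names were left out. The rule found 220 annotation entries that fell on 193 clones of 74 genes, out of 35970 library clones and 11835 genes named by a single symbol. Of the 193 clones, 189 were tested, with every gene represented, among 35118 clones tested in all. The 4 clones that were not tested belong to Rps16, Rplp2, Rpl36 and Rpl15, and 6 tested clones had values on 3 arrays only.

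The ribosome joins a small subunit, which reads the messenger RNA, to a large subunit, which forms the peptide bond. Each subunit is built on ribosomal RNA by a set of proteins named Rps for the small and Rpl for the large subunit, made in near equal amounts, and their messenger RNAs are among the most abundant of a growing cell. Many of these messenger RNAs begin with a run of pyrimidines that ties their translation to mTOR signalling. The P proteins Rplp0, Rplp1 and Rplp2 form the stalk of the large subunit, where the elongation factors dock.

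Chromaffin cells release catecholamines from the adrenal medulla, and PACAP (pituitary adenylate cyclase-activating polypeptide) is a neuropeptide that raises their cyclic AMP. Cultures were either exposed for 6 h at 37 C to PACAP, dosed at 100 ng/ml, or served as controls, and the tissue entry of the labels reads brain. RNA of PACAP-treated cells carried the dye Cy5 and control RNA of the same repeat carried Cy3 on 1 array for each of 4 biological repeats, so the arrays form 1 group. The dyes were never swapped, so the response of a clone to PACAP and any preference it has for a dye cannot be told apart in any value below. The labels do not state whether the repeats came from separate animals, and the p-values measure only the spread between these arrays. Values are log2(PACAP / control) after a loess correction for brightness within each array, given for repeats 1 to 4 or as mean ± SD over arrays (n = 4 unless stated). A value of 0 marks the typical ratio of PACAP to control signal on that array for clones of that brightness, which need not be equal signal. Higher and lower are meant relative to that level.

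The labelled cell type was checked against 8 chromaffin markers with a tested clone. The control signal exceeded 2 SD of the local background on at least 3 arrays for 5 of them (Th, Ddc, Chga, Chgb and Penk) and on fewer for Npy, Scg2 and Slc18a1. Markers of other cells were also above background: 7 of 8 for adrenal cortex, 8 of 9 for fibroblasts, 3 of 6 for endothelium, 2 of 2 for erythrocytes, 6 of 8 for leukocytes and 3 of 6 for Schwann and sustentacular cells. No gene of those 6 lists had an unadjusted limma p under 0.05 after loess. With each array centred on its median instead, 1 adrenal cortex gene was lower and 1 fibroblast gene higher at that p. With the authors' deposited log2 ratios, 2 fibroblast genes and 1 endothelial gene were lower. Of the 8 chromaffin markers, 3 (37.5%) were higher after loess and 0 lower, next to 3.93% and 6.46% of all clones. Centred on the array median, 4 were higher and 0 lower, next to 7.69% and 9.68% of all clones. From the deposited ratios, 1 was higher and 2 lower, next to 1.27% and 11.1%. The part of the other cells in the ribosomal protein values was not tested.

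The ribosomal protein clones were among the brightest spots of the array. Their median brightness, averaged over both dyes and all arrays, lay at percentile 94.2 of the clones tested, and 125 of the 189 clones (66.1%) lay in the brightest 10%. The median Cy3 signal of control RNA was 854.5, 563.8, 458.4 and 4101 intensity units on repeats 1 to 4, where the median over all clones tested was 312, 208.1, 130.4 and 578.9. Control signal exceeded 2 SD of the local background on all 4 arrays for 163 ribosomal protein clones (86.2%), against 31.3% of all clones tested. At the other end, 12 member clones were dimmer than the median clone. Brightness is a property of the spot, since it depends on the clone and on how well mouse sequence binds cattle RNA, and it is not a level of the transcript. In the cattle annotation, ARS-UCD2.0, 71 of the 74 genes have a protein-coding gene of the same symbol, the exceptions being Rpl39l, Rpl41 and Rps4l.

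**Figure D1:**
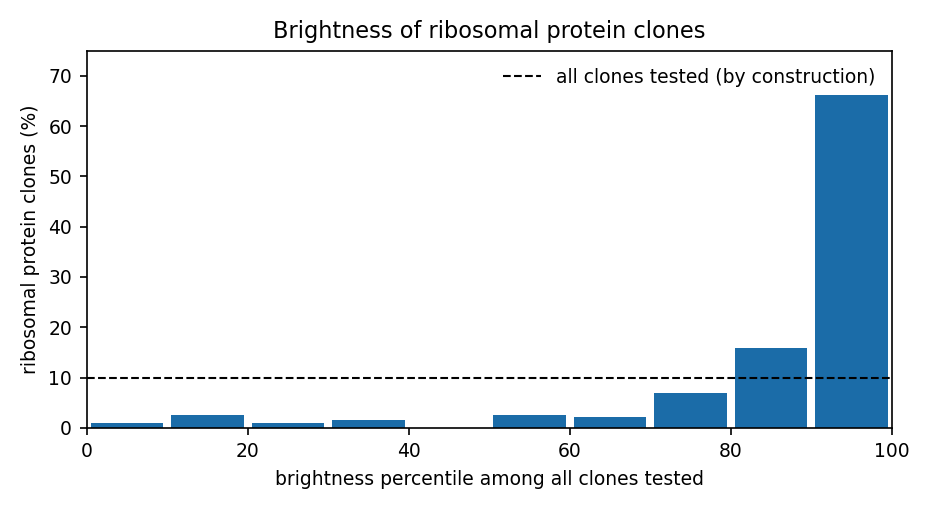
Share of the 189 tested ribosomal protein clones (y axis, percent) in each step of 10 percentiles of brightness among all clones tested (x axis, percentile of the mean log2 signal of both dyes). The dashed line marks the share that all clones have in each step by construction; the brightest 10% hold 66.1% of the ribosomal protein clones.

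The comparison asked whether ribosomal protein transcripts differed after PACAP. No ribosomal protein clone passed a Benjamini-Hochberg adjusted p of 0.05 in limma over all clones tested, where 0.0% of clones passed, and the lowest adjusted p among the members was 0.454. At an unadjusted limma p under 0.05, 12 of the 189 clones (6.35%), from 8 genes, were lower after PACAP, next to 6.46% of all clones tested. In the other direction, 6 clones (3.17%), from 5 genes, were higher, next to 3.93% of all clones. Both shares lay near those of the whole array. With 1 array left out, the lower clones were 3 without repeat 3 and 5 without repeat 4. The higher clones were 1, 3 and 11 without repeats 1, 2 and 4. Shares of all clones called in those fits were not taken, so these changes cannot be read as particular to the members. Among the brightest 20% of clones, 6.45% of the ribosomal protein clones were lower, next to 3.06% of all clones there, and 3.23% were higher, next to 5.85%.

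Single differences were small. The mean over arrays was within 0.5 of 0 for 153 of the 189 clones and beyond 1 for 4, all of them lower. Of these 4, the Rplp2 and Rps4l clones had median spot areas of 13 and 38 pixels, and the Rpl29 clone 115. The Rpl23 clone gave 0.45, -3.80, -1.1 and -0.91 on repeats 1 to 4, with a spot of 11 pixels on repeat 2. Lower values were given by 101 clones and higher ones by 88, with a median of -0.04. The median clone had an SD of 0.55 over the 4 arrays, so a clone needed a mean far from 0 to be told from its own spread. On all 4 arrays 17 of 183 clones with a full set of values (9.29%) were lower, next to 8.7% of all clones. Another 14 (7.65%) were higher on all 4, next to 10.1%. A clone with the same sign on 4 arrays keeps it on any 3, so this count of 31 cannot fall when 1 array is left out. It was 53, 49, 41 and 71 without repeats 1, 2, 3 and 4, and the same counts over all clones were not taken.

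After loess the set as a whole lay to one side on each array, and the side differed between arrays. The median log2 ratio over the ribosomal protein clones was 0.39 on repeat 1, 0.31 on repeat 2, -0.25 on repeat 3 and -0.51 on repeat 4, while the median over all clones tested was 0.00 on each of them. The share of ribosomal protein clones above 0 was 74.5% and 72.9% on repeats 1 and 2, and 34.4% and 21.7% on repeats 3 and 4. Averaged over arrays, the medians came to -0.01 ± 0.44 (SD, n = 4), a mean far smaller than the spread. After loess, most ribosomal protein clones thus lay on the same side of 0 on an array, and that side did not repeat across the 4 arrays. The sides under other scalings differ and are given below.

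After loess, other bright clones and other translation genes did not lie at those positions. In the brightest 20% of the array, the 155 ribosomal protein clones had medians of 0.43, 0.34, -0.26 and -0.53 on repeats 1 to 4, where all 7024 clones there had 0.04, 0.10, 0.10 and -0.03. The loess correction itself brings clones of a given brightness near 0. The medians of all bright clones were thus largely set by it and are no separate contrast. The 131 tested clones of mitochondrial ribosomal proteins, which build the separate ribosome inside mitochondria, had medians of 0.13, 0.16, 0.17 and -0.15. The 130 tested clones of translation initiation and elongation factors had 0.13, 0.17, 0.13 and -0.00. Clones that carry a ribosomal protein title in the scanner tables but have no symbol or several, and so fell outside the rule, gave 0.28, 0.31, -0.37 and -0.57 (33 clones of 22 genes). These clones were chosen by title and not by ratio, and their medians followed those of the members on each array. However, 24 of them belong to 16 of the member genes and were read on the same arrays with the same dyes. They are therefore no independent check. The differences between these sets were not tested.

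**Figure D2:**
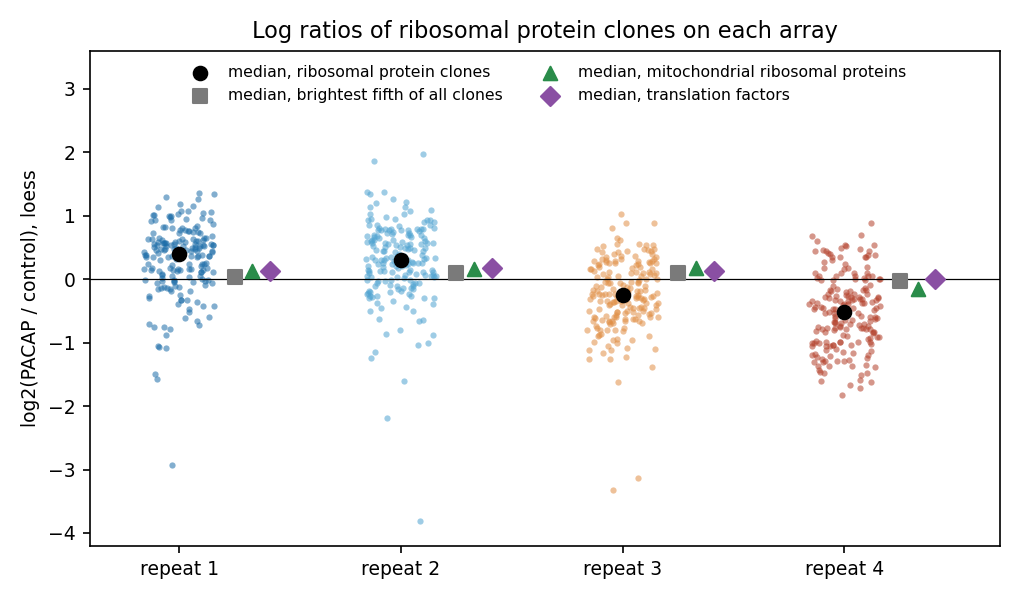
Log2(PACAP / control) after loess (y axis) of each ribosomal protein clone on each of the 4 arrays (x axis; 1 point a clone, spread sideways for sight). Larger symbols are medians of the ribosomal protein clones (0.39, 0.31, -0.25 and -0.51), of the brightest 20% of all clones, of mitochondrial ribosomal proteins and of translation factors. The last 3 stay within 0.2 of 0 on every array, which the loess correction largely sets for the brightest 20%.

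The direction of the set depended on how brightness was handled. The arrays themselves differ in dye balance: the authors' calibration factor, the ratio of Cy5 to Cy3 taken as equal, was 1.69, 1.97, 1.53 and 0.432 on repeats 1 to 4, and the median clone had more control than PACAP signal on repeats 3 and 4 (Cy5 102.9 next to Cy3 130.4, and 260.2 next to 578.9). With each array centred on its median and no correction for brightness, the ribosomal protein medians were 0.70, 1.45, 0.68 and -0.55, and 152 of 189 clones were higher. The other 37 (19.6%) were lower, next to 52.0% of all clones tested. Within the brightest 20%, 10.3% of the ribosomal protein clones were lower, next to 6.96% of all clones there, so bright clones in general were mostly higher. All clones of the brightest 20% had 0.43, 0.99, 0.89 and -0.03 under the same centring. At an unadjusted limma p under 0.05 that setting gave 2 lower and 54 higher clones (1.06% and 28.6%), next to 9.68% and 7.69% of all clones. With the authors' deposited log2 ratios, centred on each array's median, the medians were -3.21, -2.48, -2.75 and -0.28. Of the 189 clones 153 were lower, next to 55.9% of all clones. Within the brightest 20%, 87.1% of the ribosomal protein clones were lower, next to 61.0% of all clones there. All clones of the brightest 20% had -3.74, -1.54, 0.41 and 0.31 there, below the members on repeat 1 and above them on the other arrays. That setting gave 45 lower and 3 higher clones (23.8% and 1.59%), next to 11.1% and 1.27% of all clones. Shares of calls among the brightest 20% alone were not taken under either scaling. The deposited ratios had the background taken off a second time, which put the Cy3 signal of 57.5%, 83.0%, 81.6% and 5.30% of library spots at the floor on repeats 1 to 4, and of 12.3%, 32.7%, 23.2% and 0.922% of ribosomal protein spots. A common rise or fall of ribosomal protein transcripts after PACAP therefore has no settled sign here, and sides of 0 given for genes below are those after loess, many of which turn under another scaling.

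**Figure D3:**
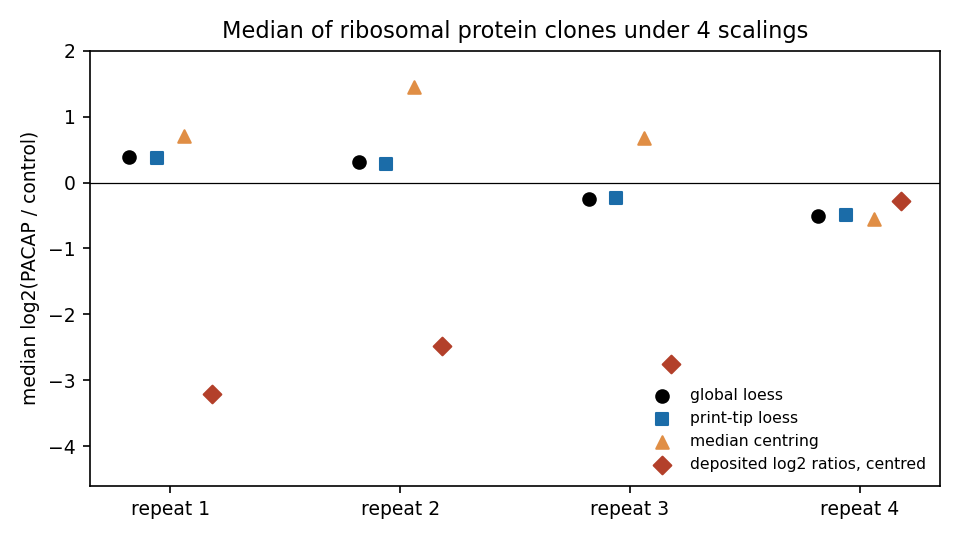
Median log2(PACAP / control) of the tested ribosomal protein clones (y axis) on each array (x axis) under 4 scalings. Global and print-tip loess give nearly the same medians; median centring lies above them on repeats 1 to 3 (0.70, 1.45 and 0.68) and the centred deposited ratios lie far below (-3.21, -2.48 and -2.75).

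Large subunit proteins were represented by 102 tested clones of 40 genes, 49 lower and 53 higher (21 and 81 with median centring, 85 and 17 from the deposited ratios), with 6 lower (5.88%, next to 6.46% of all clones) and 3 higher (2.94%, next to 3.93%) at an unadjusted limma p under 0.05. With median centring these calls were 0 and 34, and with the deposited ratios 26 and 1. Rpl23a, which lies at the exit of the peptide tunnel, had lower values in all its clones: its gene mean over clones was -0.54, -0.46, -1.06 and -1.14 on repeats 1 to 4. All 4 clones of Rpl23a were lower on every array that measured them, at -0.94 ± 0.31, -0.88 ± 0.40 (n = 3), -0.78 ± 0.44 and -0.68 ± 0.43. All 4 were among the 12 lower clones counted above, and the limma adjusted p was 0.454 for 3 of them and 0.457 for the other. With median centring the gene mean was -0.03, with 3 clones lower and 1 higher, and with the deposited ratios it was -3.42, with all 4 lower.

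Rpl37a, a small zinc-binding protein, had 3 clones, all lower on average. The gene mean was 0.09, -0.42, -1.16 and -1.55 on repeats 1 to 4, so repeats 3 and 4 were lowest and repeat 1 lay on the other side. It stayed below 0 with median centring (-0.31) and with the deposited ratios (-1.05). Its clone of smallest p had 0.16, -1.24, -1.08 and -1.67, a mean of -0.96 ± 0.78 (limma adjusted p = 0.454).

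Rpl29, a large subunit protein also described as a heparin-binding surface protein, had the member clone of smallest p. That clone, titled only as an expressed sequence tag, gave -0.75, -0.88, -1.62 and -1.27, a mean of -1.13 ± 0.40 (limma adjusted p = 0.454). The other Rpl29 clones lay nearer to 0. A clone titled ribosomal protein L29 gave 0.01, 0.07, -0.51 and -0.85 (-0.32 ± 0.44), and the other clone of that title gave 0.49, 0.26, -0.19 and -0.09 (0.12 ± 0.31, but a mean of -0.20 with median centring). Another 3 clones titled L29 outside the rule averaged -0.19, the lowest of them at -0.57.

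On the higher side, Rpl9 had 0.97, 1.02, 0.50 and 0.04 on repeats 1 to 4 as the mean of 2 clones. Its clone of smallest p had 0.80, 1.14, 0.65 and 0.40, a mean of 0.75 ± 0.31 (limma adjusted p = 0.454), higher on all 4 arrays. The other clone was higher on 3, at 0.52 ± 0.65. The means of Rpl9, Rpl10a and Rpl4 were above 0 with median centring as well (1.14 for Rpl10a and 1.20 for Rpl4) and below 0 with the deposited ratios (-1.52, -1.19 and -2.08). Rpl10a, a protein of the L1 stalk, had 0.87, 0.72, 0.58 and -0.04 over 3 clones, all higher on average, the one of smallest p at 0.67 ± 0.41 (limma adjusted p = 0.457). One Rpl28 clone gave 0.78, 1.03, 0.16 and 0.05 (0.51 ± 0.47, limma adjusted p = 0.519), and -2.01 as its mean with the deposited ratios.

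Rpl4, a core protein of the peptide tunnel with 6 clones, had all of them higher on average, between 0.19 and 0.43. The gene mean was 0.36, 0.78, 0.08 and -0.06, and the clone of smallest p, at 0.44, 0.56, 0.20 and 0.54, reached 0.43 ± 0.17 (limma adjusted p = 0.520).

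Rpl5 and Rpl11 bind the 5S ribosomal RNA and, outside the ribosome, the ubiquitin ligase MDM2. Of 4 Rpl5 clones, the one with 1.26, 0.78, 0.54 and 0.61 was the member clone of highest mean among those of the large subunit, at 0.80 ± 0.32 (limma adjusted p = 0.454), but its title names a splicing factor. Another, titled L5, gave -1.07, -1.15, -0.80 and 0.52 (-0.62 ± 0.78) and lay at brightness percentile 7.68, with a median spot area of 38 pixels. The remaining Rpl5 clones had means of 0.43 ± 0.52 and 0.11 ± 0.16. The Rpl11 clones gave -0.16 ± 0.69 and 0.13 ± 0.53, with repeats 1 and 2 above 0 and repeats 3 and 4 below for both. With median centring both Rpl11 clones and 3 of the 4 Rpl5 clones were higher, and with the deposited ratios all 6 were lower.

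Small subunit proteins had 66 tested clones of 25 genes, 40 lower and 26 higher (10 and 56 with median centring, 55 and 11 from the deposited ratios), with 1 lower (1.52%, next to 6.46% of all clones) and 3 higher (4.55%, next to 3.93%) at an unadjusted limma p under 0.05. With median centring these calls were 0 and 19, and with the deposited ratios 14 and 2. Rps21 had the highest gene mean after loess and stayed above 0 with median centring (0.93) and with the deposited ratios (1.76, with 1 clone lower): its 4 clones averaged 0.94, 0.61, 0.58 and 0.43 on repeats 1 to 4, all above 0. Its clone AI834844 gave 1.19, 1.22, 1.02 and 0.35, a mean of 0.94 ± 0.41 (limma adjusted p = 0.454). Clone AW546148 gave 1.35, 1.97, 0.27 and 0.35, a mean of 0.99 ± 0.82 (limma adjusted p = 0.454). Its other clones were also higher on average, at 0.34 ± 0.17 and 0.29 ± 0.77, the latter with 0.75, -0.86, 0.56 and 0.70.

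Rps6, the small subunit protein phosphorylated by S6 kinases, had 6 clones. The 5 bright ones, at percentiles 97.0 to 98.4 of brightness, were higher on average, between 0.22 and 0.63 (all 6 lower with the deposited ratios). All 5 lay above 0 on repeats 1 and 2. The one of smallest p gave 1.34, 1.08, 0.09 and 0.02, a mean of 0.63 ± 0.67 (limma adjusted p = 0.494). The sixth clone, also titled S6 but at brightness percentile 8.71, gave -0.66, -0.18, -0.82 and 0.09 (-0.39 ± 0.42). The bright and the dim clones of Rps6 thus lay on opposite sides of 0 on repeats 1 and 2.

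Rpsa, the laminin receptor and small subunit protein, had 5 clones, all lower on average, between -0.61 and -0.14, though 4 of them were higher with median centring. The gene mean was -0.28, 0.02, -0.34 and -0.49. The steadiest clone had -0.35, -0.10, -0.26 and -0.24, a mean of -0.24 ± 0.10 (limma adjusted p = 0.695), and the lowest had -0.76, 0.04, -0.70 and -1.03, a mean of -0.61 ± 0.46 (limma adjusted p = 0.480). Rps4x, the X-linked S4 protein, had 3 clones, all higher on average after loess and all lower with the deposited ratios, the one of smallest p at 0.81, 0.78, 0.36 and 0.35, a mean of 0.57 ± 0.25 (limma adjusted p = 0.474). No clone of Rps27a, the ribosomal protein made as a fusion with ubiquitin, met the rule.

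The stalk proteins had 10 tested clones, 8 lower and 2 higher (2 and 8 with median centring, 9 and 1 from the deposited ratios), with 4 lower at an unadjusted limma p under 0.05 (next to 6.46% of all clones) and 0 higher (next to 3.93%). The lower calls were 1 with median centring and 5 with the deposited ratios, and these clones come from 3 genes. Their array medians of 0.09, -0.20, -0.68 and -0.71 lay below those of all ribosomal protein clones on every array. For Rplp0, the stalk base, all 3 clones were lower on average, though higher with median centring, and the gene mean was -0.16, -0.28, -0.94 and -1.06. Its lowest clone gave -0.42, -0.26, -1.27 and -1.36, a mean of -0.83 ± 0.57 (limma adjusted p = 0.454). The others had -0.68 ± 0.49 (limma adjusted p = 0.466) and -0.32 ± 0.33.

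Rplp1 had 4 clones at -0.61 ± 0.38 (limma adjusted p = 0.474), -0.28 ± 0.65, -0.04 ± 0.29 and 0.03 ± 0.68. Only the first was lower on all 4 arrays, with -0.26, -0.67, -1.12 and -0.38, and with median centring all 4 were higher on average. Rplp2 had 3 clones that did not match each other. One, measured on repeats 2 to 4, gave -1.61, -3.32 and -0.35, a mean of -1.76 ± 1.49 (n = 3, limma adjusted p = 0.454), the lowest mean of all member clones. Its spots had a median area of 13 pixels, where the typical spot had 98 to 115. In the authors' deposited log2 ratios, centred, this clone was the 1 member (0.529%, next to 1.32% of all clones) past an adjusted limma p of 0.05, at -7.22, -12.72 and -6.07 on those repeats (n = 3, adjusted p = 1.231e-05). The other Rplp2 clones had full-sized spots and means of -0.08 ± 0.95 and 0.30 ± 0.82.

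Paralogues, encoded by related genes with a restricted or minor role, gave 11 tested clones of 6 genes. Rpl7l1, a nucleolar relative of Rpl7 that acts in ribosome assembly, had 6 of them. After loess 5 of these were higher on average, between 0.22 and 0.40 (4 of them with the deposited ratios), and 1 was lower, at -0.41 ± 0.58 (n = 3) with a median spot area of 21 pixels. The clone of smallest p gave 0.92, 0.72, 0.27 and -0.32, a mean of 0.40 ± 0.55 (limma adjusted p = 0.596). Rpl36al was at 0.02 ± 0.49, Rpl22l1 at 0.05 ± 1.05, Rpl39l at -0.23 ± 0.79 and Rps27l, a gene activated by p53, at -0.37 ± 0.61. With the deposited ratios Rpl39l (1.51) and Rps27l (2.11) were higher and Rpl36al (-0.55) lower. The clone annotated Rps4l gave -0.87, -2.19, -3.14 and 0.38, a mean of -1.46 ± 1.53 (limma adjusted p = 0.454), but its title names a zinc finger homeobox protein and its median spot area was 38 pixels. No clone of Rpl3l or Rpl10l met the rule. The paralogue medians over clones, 0.36, 0.24, 0.26 and 0.02, rest mostly on Rpl7l1. By gene the medians were 0.22, -0.22, -0.06 and -0.14, with 4 of 6 genes below 0 on repeat 3 and 3 on repeat 4. cDNA of close relatives can bind the same spot, and how much of a paralogue's signal came from its relative was not tested.

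**Figure D4:**
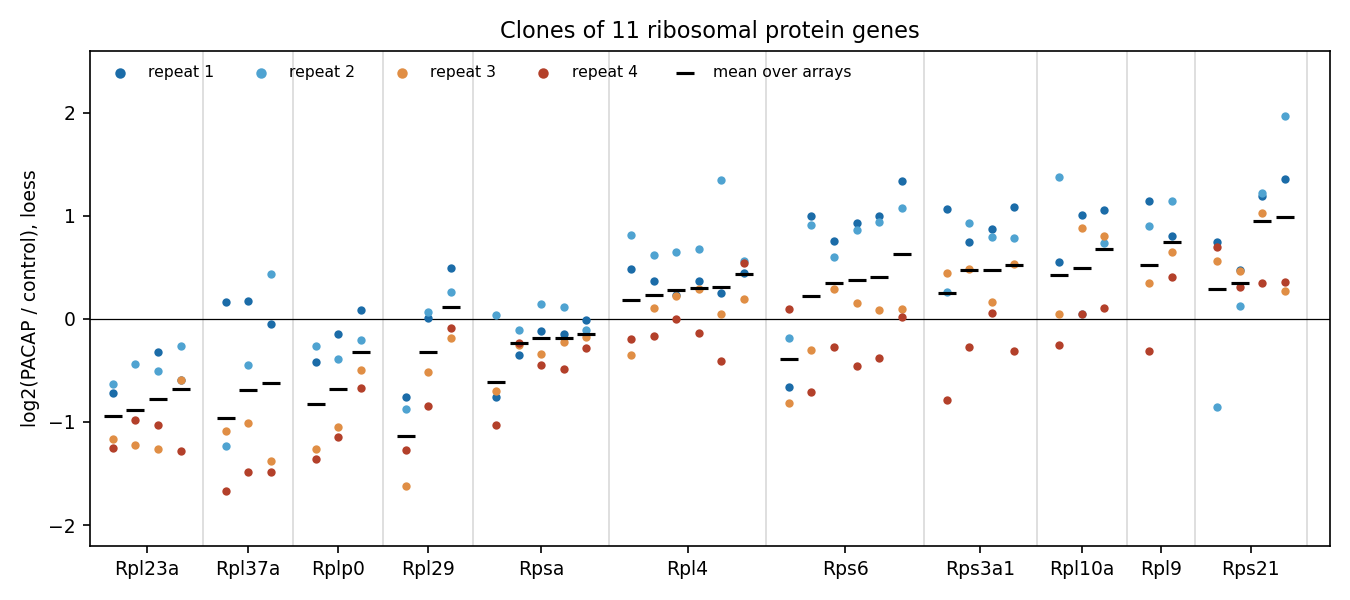
Log2(PACAP / control) after loess (y axis) of every tested clone of 11 genes named in the text (x axis; 1 column of points a clone, coloured by repeat, with a bar at the mean over arrays). All clones of Rpl23a, Rpl37a, Rplp0 and Rpsa have means below 0 (with median centring all Rplp0 clones, 4 of Rpsa and 1 of Rpl23a turn, and with the deposited ratios 1 of Rpl37a) and all clones of Rpl4, Rps3a1, Rpl10a, Rpl9 and Rps21 have means above 0 (with the deposited ratios all of these turn, except for 3 of the Rps21 clones), while Rpl29 and Rps6 have clones on both sides (all lower with median centring and with the deposited ratios, respectively).

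Clones of the same gene gave closer values than clones of different genes. Of the 56 genes with at least 2 tested clones (171 clones), 36 had all clones on the same side of 0 after loess, 20 of them lower and 16 higher, and 20 had clones on both sides. With at least 3 clones, 19 of 34 genes were on 1 side. These counts have no share over other genes of the array beside them, and 2 clones can easily share a side. The SD of the 4-array mean was 0.30 between clones of 1 gene and 0.42 over all these clones. For the 143 bright clones of 48 genes it was 0.23 within a gene and 0.41 over all. On single arrays the SD within a gene was 0.48, 0.56, 0.45 and 0.35 on repeats 1 to 4, and over all clones it was 0.56, 0.64, 0.55 and 0.59. Clones of a gene are repeated measurements of 1 transcript and no replicates of the treatment, and each clone keeps its own dye preference.

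The identity of the clones was checked against the titles in the scanner tables. Of the 193 clones, 74 had a title that names a ribosomal protein, 104 had an unspecific title or none, and 15 had one that names another protein. Among clones titled as ribosomal proteins but outside the rule, 24 belong to 16 of the member genes, and for 12 of the 16 their mean lay on the same side of 0 as that of the member clones. Rpl10a (0.42 outside, 0.53 among the members), Rpl13a (0.42 and 0.20), Rpl10 (-0.67 and -0.48) and Rpl37a (-0.36 and -0.76) are examples. Rps6 (-0.59 and 0.26) and Rps16 (0.37 and -0.03) lay on opposite sides. The lowest clone of this kind was titled L27a, at -2.13 ± 1.24 (n = 3), while the 3 member clones of Rpl27a averaged -0.17.

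Places relative to the member median recurred on all arrays for part of the clones. After the member median of each array was taken off, 34 of 183 clones (18.6%) were below it on all 4 arrays, whereas 8.99% of all clones were below the median of all clones on all 4. Above it on all 4 were 30 clones (16.4%), next to 9.75%. In the brightest 20% the shares were 20.8% of ribosomal protein clones next to 13.1% of all clones below, and 16.9% next to 14.1% above. Several of these clones belong to the same gene and are not independent of each other, and the differences in share were not tested.

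Gene means showed which members held their place. Relative to the member median, Rplp0 lay at -0.55, -0.59, -0.69 and -0.55 on repeats 1 to 4, a mean of -0.59 ± 0.06. Rpl23a lay at -0.94, -0.77, -0.81 and -0.63 (-0.79 ± 0.13), and Rpl37a at -0.30, -0.73, -0.91 and -1.04 (-0.74 ± 0.32). At the other end Rpl9 lay at 0.58, 0.71, 0.75 and 0.55 (0.65 ± 0.10) and Rps21 at 0.55, 0.30, 0.83 and 0.94 (0.66 ± 0.29). These genes thus kept their side on arrays where the set itself lay on opposite sides of 0. Rpl10a was at 0.55 ± 0.19, Rps3a1 at 0.44 ± 0.21, Rps4x at 0.40 ± 0.13, Rpl31 at -0.46 ± 0.10 and Rpl8 at -0.32 ± 0.11, each on 1 side on all 4 arrays. With the deposited ratios Rpl37a (1.13), Rpl8 (1.05) and Rpl31 (0.23) had means above the member median instead, whereas Rpl23a and Rplp0 stayed below it and Rpl9, Rpl10a and Rps21 above it on every array. In all, 14 of the 56 genes with at least 2 clones were below the member median on every array and 12 above it. No share over the other genes of the array was taken for gene means, so these counts cannot be called particular to ribosomal proteins. With median centring in place of loess, 12 of the 14 and 9 of the 12 kept that place on every array. The gene order by mean had a Pearson correlation of 0.80 between these scalings and 0.29 between loess and the deposited ratios (74 genes, the same arrays). With a single dye orientation, a steady place among the members may belong to the clones or to the transcript, and these cannot be told apart.

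**Figure D5:**
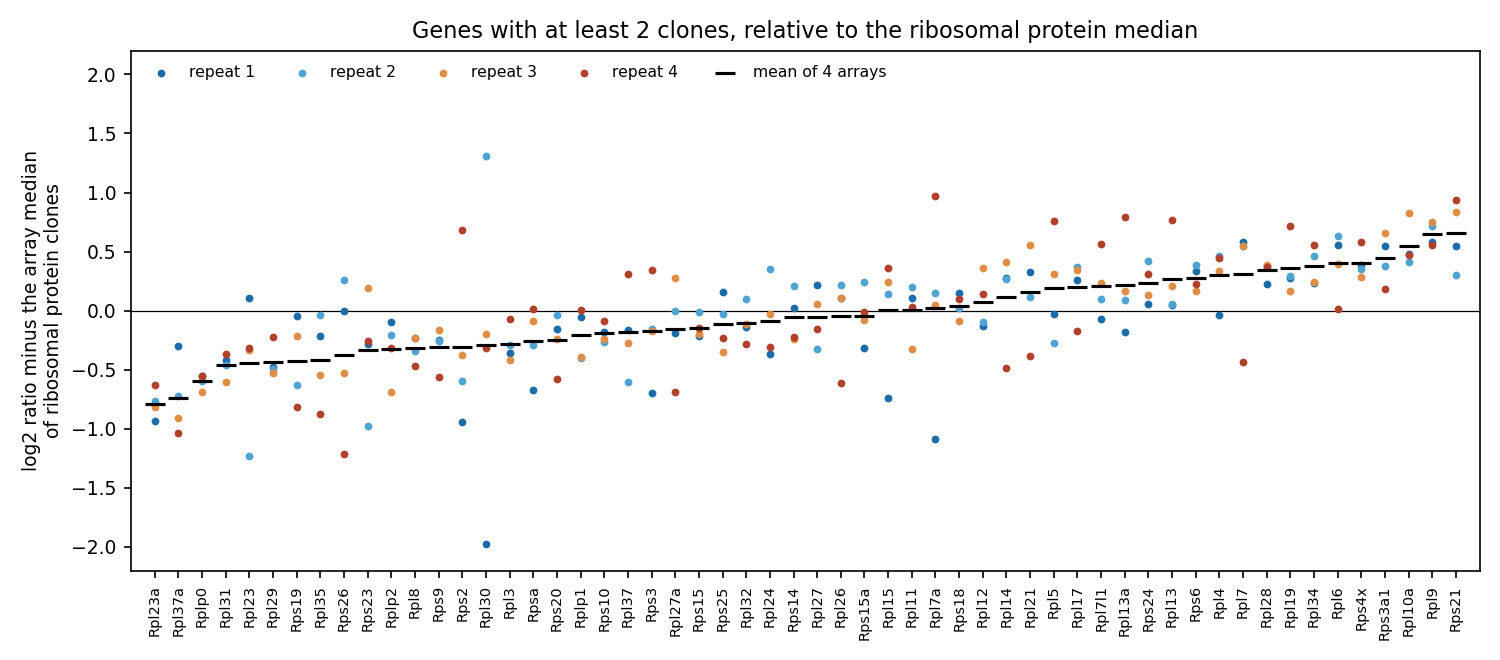
Mean log2 ratio of each of the 56 genes with at least 2 tested clones minus the median of all ribosomal protein clones on that array (y axis), ordered by the mean of the arrays (x axis; points are the 4 repeats, bars the mean). After loess Rpl23a, Rpl37a (not with the deposited ratios) and Rplp0 lie below 0 on every array, Rpl10a, Rpl9 and Rps21 (3 arrays with median centring) above it on every array, and genes such as Rpl30 and Rpl7a range widely.

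Correlation between arrays differed by pair. Over the 183 ribosomal protein clones with 4 values, Pearson's r was 0.32, 0.42 and 0.50 for the pairs among repeats 1, 2 and 3 (1 with 2, 1 with 3, 2 with 3), and 0.09, 0.15 and 0.29 for repeat 4 with repeats 1, 2 and 3. Over the means of 55 genes with at least 2 clones, the same pairs gave 0.54, 0.62 and 0.67, and 0.11, 0.30 and 0.51. Over all 33273 clones the values were 0.22, 0.29 and 0.37, and -0.01, -0.13 and -0.00. The 6973 clones of the brightest 20% gave 0.32, 0.35 and 0.35, and 0.13, 0.14 and 0.27. Except for repeats 2 with 3, these lay nearer to the values of the ribosomal protein clones than those over all clones did. The arrays share the printed clones and the dye orientation, so these values describe the arrays and carry no test.

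Other genes of the translation pathway, each by its brightest clone, gave these counts past an unadjusted limma p of 0.05, which 6.46% of all clones passed as lower and 3.93% as higher, and none past the adjusted one. Among 35 translation factors 0 were lower and 3 higher (8.57%; 0 and 15 with median centring, 8 and 1 with the deposited ratios), among them Eif4g2, a scaffold of cap-independent initiation, at 0.61, 0.88, 0.81 and 0.49 (0.70 ± 0.18), which had -1.78 with the deposited ratios, and Eif5b, which joins the subunits, at 0.79 ± 0.54. The 2 lower translation factors of smallest p, Eef2 at -0.57 ± 0.64 and Eef1d at -0.53 ± 0.66, did not reach it. Among 35 ribosome biogenesis genes (2 lower and 18 higher with median centring, 7 and 1 with the deposited ratios) 1 was lower (2.86%) and 3 were higher (8.57%). The lower one was Taf1b of the RNA polymerase I machinery at -0.82 ± 0.47. Of smallest p among the higher were Gnl3 (nucleostemin) at 1.03 ± 0.89 and Nhp2 at 0.73 ± 0.39. Gnl3 gave 0.40, 0.99, 2.3 and 0.43 on repeats 1 to 4, and its control signal was above background on 2 arrays only. The lower gene next in p, Bop1, had -0.66 ± 0.60, which missed the threshold. Of 7 regulators and ribosomal proteins with other names, such as Fau (-0.09 ± 0.22), Rps6ka3 (0.11 ± 0.36), Tsc1 (-0.42 ± 0.30) and Larp1 (0.12 ± 0.07), none passed in either direction. Of 71 mitochondrial ribosomal protein genes (3 lower and 3 higher with median centring, 3 and 0 with the deposited ratios) 2 were lower (2.82%) and 0 were higher. The lower ones were Mrpl13 at -1.41 ± 1.72 and Mrpl10 at -0.61 ± 0.40. The mean of Mrpl13 leaned on repeat 3, with -0.70, -0.29, -3.97 and -0.67 on repeats 1 to 4. Closest on the higher side were Mrpl37 at 0.82 ± 1.16 and Mrpl40 at 0.49 ± 0.42.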

How the data were processed

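Each of the 4 arrays was deposited as a scanner table. Intensity values (mean brightness of a spot and of its local background, with the background's SD) and spot areas are on a linear scale, per the file headers, which name no image analysis program. Local background had been removed from the deposited spot means, as the values show: dividing total intensity by mean plus background gave a median of 113.8 to 125.8 pixels a spot, near the median area of 98 to 115, and dividing total Cy3 intensity by the mean alone gave as much as 332.6. The deposited ratio of a spot is Cy5 over Cy3 divided by 1 calibration factor per array, a step found from the values. The series table holds log2 ratios that the authors deposited; they were recomputed as the ratio after a second background subtraction, floored at 1 and divided by that factor, and are not centred as deposited.

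Symbols from the platform annotation were joined to spots by plate position, with a tolerance of 0.1 log2 units. After a floor of 1 on the intensities, log2(Cy5 / Cy3) was corrected by global loess (span 0.3, 4 iterations) in limma 3.58.1 (R 4.3.3). Spots sharing clone identifier and annotation were averaged: 19 member clones have several wells (46 in all), whose ratios on an array had a median range of 0.27. Clones entered the test if Cy5 or Cy3 signal was above 2 SD of the local background on 3 or more arrays. The fit was intercept only with eBayes, 2-sided, with Benjamini-Hochberg adjustment over all clones tested, and was tested on simulated data. Summaries used numpy 2.4.6, pandas 2.3.3 and scipy 1.17.1 in Python 3.11.15, and plots used matplotlib 3.10.9.

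The members, lists and named genes were chosen with earlier results of these data known. Named were the 8 clones of smallest p in each direction, every clone of a set of fixed genes and paralogues, the 3 genes with most clones, and any clone with an array apart; in other lists, the 2 lower and 2 higher genes with the smallest p. Gene means over clones (such as Rpl8 or Rpl31) were singled out after their values were seen, and so were Rpl10, Rpl13a, Rps16, Rpl27a and the Rpl23 clone. Alternatives covered normalization, background, floor, filters, moderation, clone identity and each array left out. The number of arrays limits the precision.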

Additional observations from a re-analysis of the deposited data

Results flagged for a closer look

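In 3 of 183 ribosomal protein clones with 4 values (1.64%), 1 array stood apart from the other 3 by Dixon's criterion for 4 values, which by chance picks about 1 group in 20. Rps10 clone AW547834, a small subunit protein, had 0.50 on repeat 1 next to -0.30, -0.27 and -0.34 on the others. Rps21 clone AW554821 had -0.86 on repeat 2 next to 0.75, 0.56 and 0.70. Rps29 clone AW551315, a zinc-binding small subunit protein, had -1.71 on repeat 4 next to 0.30, 0.25 and 0.32. The 3 clones involve 3 different arrays.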

How the results depend on the processing

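No paired analysis was possible because the arrays form 1 group and each ratio already sets PACAP against the control of the same repeat. The median of -0.04 moved to 0.53 with median centring and to -1.92 with the deposited log2 ratios, and it ran from -0.16 to 0.15 with 1 array left out. The 12 lower clones became 2 with median centring, 45 with the deposited ratios, 22 with trend and robust moderation and 4 among the 74 clones titled as ribosomal proteins. The 6 higher clones became 54, 3, 16 and 2 under the same settings. With 1 array left out, lower clones ran from 3 to 12 and higher ones from 1 to 11; without repeat 3 there were 3 lower, without repeat 4 there were 5 lower and 11 higher, without repeat 1 there was 1 higher and without repeat 2 there were 3. Clones past the adjusted p were 0 under every setting run except the deposited ratios, with 1. The 31 clones with the same sign on all 4 arrays became 60 with the deposited ratios and 9 among titled clones. With 1 array left out, 41 to 71 had the same sign on the 3 arrays left, a count that by its definition cannot fall below 31. The titled subset holds fewer clones. Shares of all clones called were not taken with 1 array left out or with trend and robust moderation. Those moves therefore cannot be read as particular to the members. The cause of the moves in the called counts, in the median and with the deposited ratios was not tested. Counts and median under the other settings, among them each well as its own clone and clones titled as another protein left out (both chosen after seeing the data), stayed within 1.5 times and within the spread of the array medians. Of the 60 named clones, 19 kept their sign under the settings that tested them (12 were tested under all planned ones); 26 changed sign with the deposited ratios, 14 with median centring, and at most 8 under any other.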
